A study of Mus musculus with 27 samples.

Results

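The 36 genes described here are genes of amino acid supply and tRNA charging that are known or studied as targets of the transcription factor ATF4, together with Atf4 itself. They were chosen with earlier results of these data known, so their counts beside the shares of all genes are descriptive only. Probes were taken where the gene name in the scanner files was among the 36, or for a synthetase that name with a trailing 1. This gave 34 genes with 66 probes, out of 21866 genes tested and 41174 probes measured. The remaining 2, Farsb and Vars, stood under other names in the files and were found through their accessions with 3 probes, so they are given apart from the counts. All 34 passed the filter on dim probes, were well above background on every array of every group, and were tested. By role they were 17 cytosolic aminoacyl-tRNA synthetases, 7 transcription factors and feedback regulators, 6 enzymes of asparagine, serine and one-carbon synthesis, and 4 amino acid transporters.

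RNA came from whole uteri of ovariectomised female mice aged 8 weeks, of 3 kinds: the (B6 × C3H)F1 hybrid (F1), C3H, and C57BL/6 (B6). Each kind had 3 groups, namely 24 h after 17β-estradiol (E2, the main ovarian estrogen), 2 h after E2, and vehicle. E2 was injected into the peritoneum at 40.0 µg per kg body weight in saline with ethanol, and vehicle animals received saline with ethanol alone. Every group lacked ovaries, and the labels give no collection time for vehicle. Each of the 9 groups had 3 arrays, so 27 arrays were read. The tissue of a group came from 3 animals, and since the labels tie no array to an animal, the p-values cover the spread between samples only, which may in part be technical. Because whole uterus was measured, fewer cells of a type and less RNA per cell cannot be told apart. The comparisons ask how these genes respond to E2 at both times and whether strain changes their level or their response.

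As background, ATF4 is the main transcription factor of the integrated stress response. When amino acids run short or unfolded protein builds up, kinases phosphorylate the initiation factor eIF2, which lowers protein synthesis in general but raises the translation of Atf4 mRNA. ATF4 then binds amino acid response elements with partners of the C/EBP family and raises genes that import and make amino acids and charge tRNAs. The pathway can also be engaged by growth signals, and in the uterus of ovariectomised rodents E2 is known to start growth and, later, cell division of the epithelium.

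Levels are log2 processed signal minus the array's own 75th percentile, so a level of 0 is that percentile, and no gene's level is set against another's. The 75th percentile lay between 1211 and 1579 intensity units over the 27 arrays, and on each array 72.4% to 79.4% of the probes passed as well above background. Replicate arrays correlated at r = 0.988 to 0.996 over genes. The arrays with over 250 genes beyond 1 log2 unit of their group mean were 3: C3H E2 24 h replicate 1 (482 genes), C3H E2 2 h replicate 1 (298) and B6 vehicle replicate 1 (435). The arrays lay on 7 slides. In no strain did E2 24 h arrays share a slide with vehicle, nor did the E2 2 h arrays of C3H. A model with slide as a term gave values in 7 of the 18 comparisons, B6 at 24 h among them, where E2 2 h arrays link the slides. In the other comparisons slide and group cannot be told apart. Changes are from 1 limma model of the 9 group means, and genes with an adjusted p under 0.05 (Benjamini-Hochberg, across every gene tested) are called changed. Both times of a strain are set against the same vehicle arrays.

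Upstream sequence is shown first, because ATF4 is known to bind the composite element TGATGNAA. RefSeq windows of 300 bases around the start (250 before, 50 after, build GRCm38.p6) were matched by the listed name for 26 of the 36 members. The rest were not looked up under other names. The element stood on either strand in 9 of these 26 members, against 4.51% of the 27025 genes with a window (3.97% of all 32851 windows). The 9 were Aars, Asns, Chac1, Gars, Iars, Slc7a11, Tars, Trib3 and Yars, and Aars and Slc7a11 each held it at 2 places. The palindrome TGACGTCA, the cyclic AMP response element, stood in 0 of the 26 members, against 2.03% of the genes with a window. CACGTG, the E-box bound by MYC and related factors, stood in 4 members (Aars, Farsb, Iars and Tars), against 8.09% of the genes with a window. The 3 motifs do not overlap one another in these windows. A match describes letters only and was not tested as a binding site.

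The 200 bases before the start are given for 6 members with the element there and for Atf4 and Psat1, which hold none and whose responses are described below. Each line runs 5′ to 3′ on the gene's strand, and capitals mark TGATGNAA or its reverse complement. The windows are chr2:119351042-119351241 (plus strand) for Chac1, chr3:50443614-50443813 (minus strand) for Slc7a11, chr6:7693210-7693409 (minus strand) for Asns, chr8:111033642-111033841 (plus strand) for Aars, chr6:55037801-55038000 (plus strand) for Gars, chr15:11399659-11399858 (minus strand) for Tars, chr15:80254984-80255183 (plus strand) for Atf4 and chr19:15925060-15925259 (minus strand) for Psat1.
Chac1: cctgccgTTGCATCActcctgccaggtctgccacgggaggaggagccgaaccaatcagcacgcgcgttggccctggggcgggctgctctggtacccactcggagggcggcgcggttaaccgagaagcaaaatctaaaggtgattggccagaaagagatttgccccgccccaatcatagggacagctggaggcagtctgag
Slc7a11: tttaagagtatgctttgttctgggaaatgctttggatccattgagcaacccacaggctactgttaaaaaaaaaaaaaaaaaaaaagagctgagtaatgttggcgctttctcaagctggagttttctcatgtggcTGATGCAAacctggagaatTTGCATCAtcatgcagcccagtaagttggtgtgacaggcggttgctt
Asns: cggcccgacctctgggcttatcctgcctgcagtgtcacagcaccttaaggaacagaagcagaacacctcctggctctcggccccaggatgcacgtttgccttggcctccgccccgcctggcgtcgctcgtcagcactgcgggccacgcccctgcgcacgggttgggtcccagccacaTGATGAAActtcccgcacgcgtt
Aars: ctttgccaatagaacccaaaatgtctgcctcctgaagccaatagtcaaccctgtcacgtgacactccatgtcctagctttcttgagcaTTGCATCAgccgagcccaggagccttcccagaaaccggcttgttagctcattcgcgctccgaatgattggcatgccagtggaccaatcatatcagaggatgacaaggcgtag
Gars: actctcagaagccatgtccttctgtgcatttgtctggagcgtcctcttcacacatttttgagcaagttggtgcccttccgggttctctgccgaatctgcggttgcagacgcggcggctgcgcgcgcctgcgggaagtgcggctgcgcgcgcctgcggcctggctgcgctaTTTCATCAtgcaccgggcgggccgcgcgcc
Tars: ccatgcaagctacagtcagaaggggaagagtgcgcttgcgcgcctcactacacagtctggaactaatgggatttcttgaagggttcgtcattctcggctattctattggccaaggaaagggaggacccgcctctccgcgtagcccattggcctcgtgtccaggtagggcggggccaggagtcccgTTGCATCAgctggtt
Atf4: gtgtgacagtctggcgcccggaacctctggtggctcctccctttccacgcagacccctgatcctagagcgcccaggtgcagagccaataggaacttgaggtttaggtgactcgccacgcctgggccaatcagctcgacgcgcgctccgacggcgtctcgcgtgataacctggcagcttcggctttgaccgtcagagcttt
Psat1: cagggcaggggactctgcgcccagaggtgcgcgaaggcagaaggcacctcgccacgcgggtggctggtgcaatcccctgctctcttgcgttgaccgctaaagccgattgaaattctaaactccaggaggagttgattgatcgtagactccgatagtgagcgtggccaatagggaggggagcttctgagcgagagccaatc

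The element began 193 bases before the start in Chac1, 112 in Aars, 66 and again 47 in Slc7a11, 30 in Gars, 23 in Asns and 15 in Tars, counted to its first base on the gene's strand. In Iars, Trib3 and Yars it lay just after the start. These genes did not move alike. Chac1 rose at 2 h and was not called at 24 h, and Asns was not called at 2 h and rose at 24 h. On the probe used, Slc7a11 was not called at 2 h in any strain.

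At 2 h after E2, the regulators Atf4, Chac1 and Trib3, the transporter Slc7a5 and the synthesis enzyme Mthfd2 were among members that rose in each strain. The regulators Ddit3 and Eif4ebp1 and the synthesis enzymes Phgdh, Psph and Shmt2 were among those that fell. At 24 h all 6 synthesis enzymes and 15 to 17 of the 17 synthetases were higher than in vehicle. Of the 34 members, 20 were called higher and 7 lower at 2 h in F1, where 22.9% of all genes were higher and 36.9% lower. In C3H, 18 were higher and 9 lower (all genes 23.9% and 37.2%), and in B6, 18 were higher and 10 lower (all genes 22.7% and 34.1%). The members' median change at 2 h was 0.28, 0.27 and 0.23 log2 units in F1, C3H and B6, beside -0.12, -0.13 and -0.09 over all genes. At 24 h, 27 were higher and 2 lower in F1 (all genes 31.6% and 36.9%), 25 and 4 in C3H (all genes 26.9% and 40.4%), and 29 and 2 in B6 (all genes 30.8% and 37.3%). Counting both directions, 27 members were called at 2 h in F1, 27 in C3H and 28 in B6 (all genes 59.8%, 61.1% and 56.8%), and 29, 29 and 31 at 24 h (all genes 68.5%, 67.3% and 68%). Median changes at 24 h were 0.71, 0.57 and 0.83 for the members, beside -0.04, -0.16 and -0.06 over all genes.

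Called in each of the 3 strains at 2 h were 17 members higher and 7 lower, where 17.8% of all genes were higher and 28.3% lower in each strain. At 24 h these were 25 higher and 2 lower (all genes 22.8% and 29.2%). Atf5 was called in opposite directions, and 2 members, Chac1 and Slc3a2, in no strain. Without between-array scaling the 2 h split moved to 21 higher and 4 lower in F1, 21 and 5 in C3H and 18 and 7 in B6, where all genes were 32.7% higher and 21.3% lower in F1, 30.5% and 23.7% in C3H, and 24.4% and 25.5% in B6; the median change of all genes was then 0.13, 0.058 and -0.0052 in F1, C3H and B6. With slide as a fixed term, 21 members were called at 2 h in F1 (17 higher and 4 lower, all genes 18.8% and 30.4%) and 17 in B6 (10 higher and 7 lower, all genes 17.6% and 25.4%). At 24 h in B6, 27 were called (25 higher and 2 lower, all genes 22.8% and 25.8%). Within the single slide that held both groups, with 1 vehicle array in F1 and 1 E2 array in B6, 9 were called at 2 h in F1 (6 higher and 3 lower, all genes 14.2% and 23%) and 10 in B6 (7 higher and 3 lower, all genes 9.13% and 12.3%). Background correction by normexp called 16 at 2 h in F1 (13 higher and 3 lower, all genes 12% and 14.6%), 17 in C3H (13 higher and 4 lower, all genes 11.1% and 13.4%) and 13 in B6 (9 higher and 4 lower, all genes 8.92% and 10.9%). The same correction with high local backgrounds replaced by the array median, a form chosen after those values were seen, called 27 in F1 (all genes 20.7% and 40.3%), 28 in C3H (all genes 20.9% and 40.3%) and 27 in B6 (all genes 21.1% and 34.9%).

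**Figure D1:**
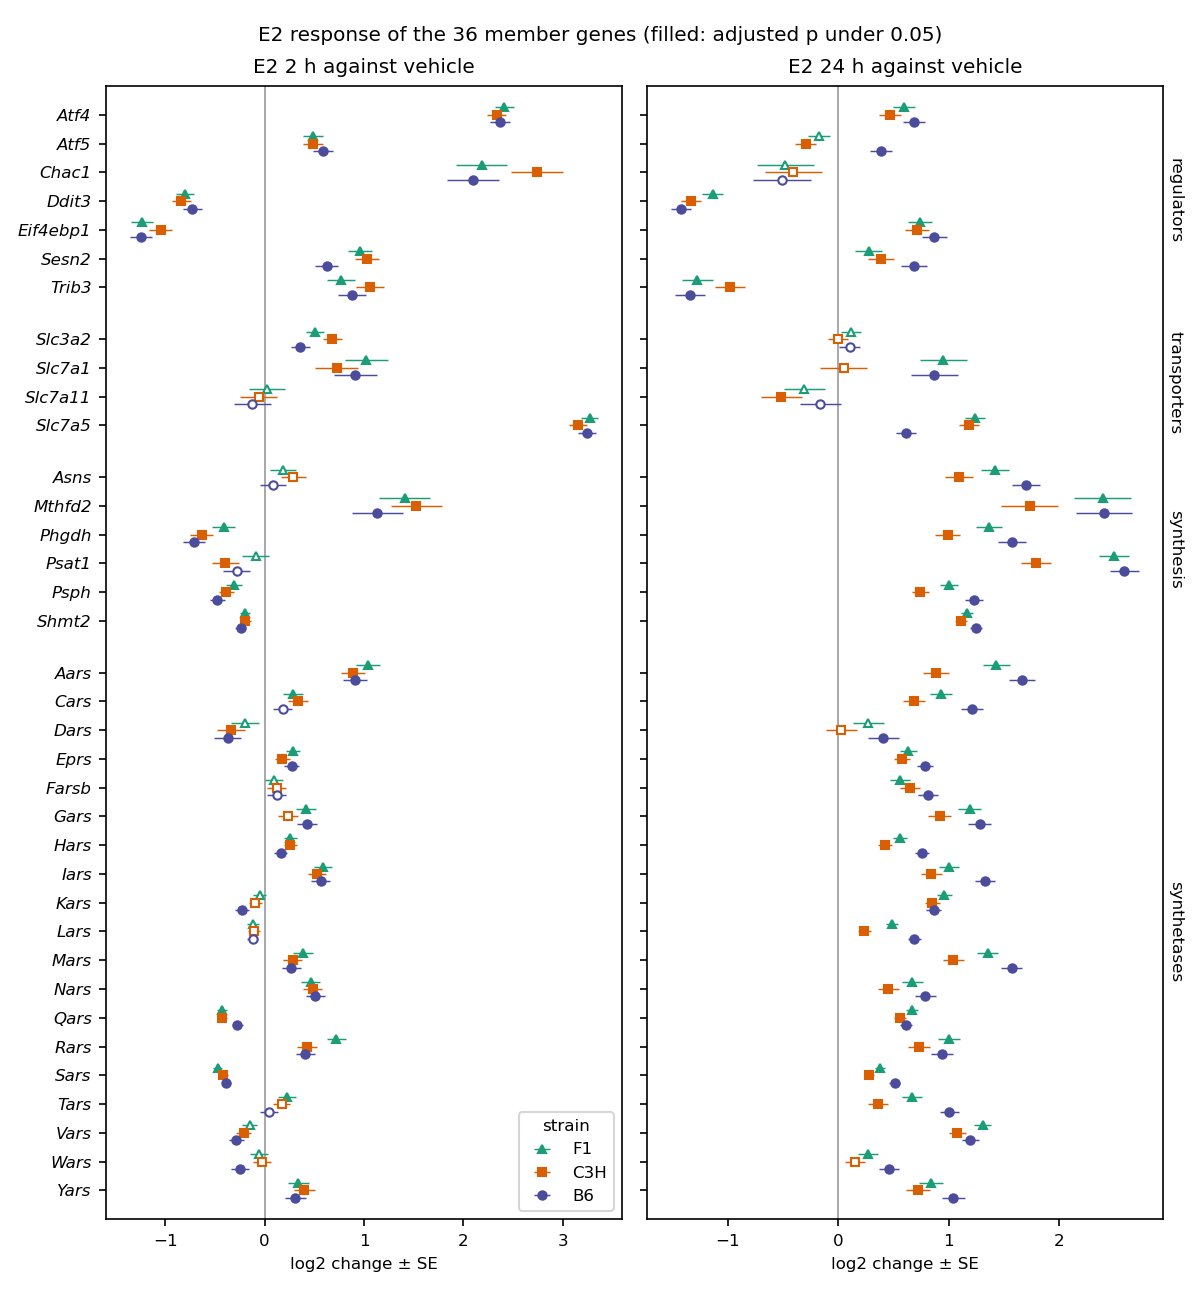
Log2 change against vehicle (± SE) of the 36 members at 2 h (left) and 24 h (right), grouped by role, with F1 as triangles, C3H as squares and B6 as circles; filled symbols were called at adjusted p under 0.05. At 2 h Slc7a5, Chac1 and Atf4 reach furthest to the right and Eif4ebp1 furthest to the left, and at 24 h the synthesis enzymes and synthetases lie to the right of 0, with Dars in C3H closest to it at 0.03.

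Among the regulators, 5 rose and 2 fell at 2 h in each strain. Atf4, the transcription factor of the pathway, is given first. Atf4 measured 1.15, 1.13 and 1.19 at 24 h, 2.67, 3.08 and 3.19 at 2 h, and 0.61, 0.52 and 0.57 in vehicle in F1. In C3H, Atf4 measured 0.92, 1.03 and 0.99 at 24 h, 2.69, 2.96 and 2.89 at 2 h, and 0.48, 0.54 and 0.52 in vehicle. In B6, Atf4 measured 1.04, 1.30 and 1.12 at 24 h, 2.80, 2.92 and 2.79 at 2 h, and 0.47, 0.50 and 0.42 in vehicle. In each strain the 2 h arrays lay above the 24 h arrays, and these lay above vehicle, with no overlap. Atf4 rose at 2 h by 2.41 in F1, 2.33 in C3H and 2.37 in B6, or 5.33-, 5.04- and 5.16-fold (SE 0.10, adjusted p at most 4.52e-14), and at 24 h by 0.59 in F1, 0.47 in C3H and 0.69 in B6 (SE 0.10, adjusted p at most 0.0003). The 24 h level was below the 2 h level by 1.82 in F1, 1.87 in C3H and 1.68 in B6 (SE 0.10, adjusted p at most 3.44e-12). Within a slide the 2 h change was 2.41 in F1 (3 E2 arrays against 1 vehicle array) and 2.33 in B6 (1 against 3).

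Chac1, which encodes an enzyme that degrades glutathione, is an ATF4 target. Chac1 measured -2.49, -2.62 and -2.60 at 24 h, -0.15, -0.23 and 0.67 at 2 h, and -1.69, -2.29 and -2.28 in vehicle in F1. In C3H, Chac1 measured -2.17, -2.26 and -2.29 at 24 h, 0.50, 1.34 and 0.88 at 2 h, and -1.90, -2.17 and -1.43 in vehicle. In B6, Chac1 measured -2.75, -2.46 and -2.71 at 24 h, -0.48, 0.52 and -0.13 at 2 h, and -1.97, -2.25 and -2.16 in vehicle. All 2 h arrays were above all others of their strain, and at 24 h the groups overlapped with vehicle in C3H and lay just below it in F1 and B6. Its rise at 2 h was 2.18 in F1, 2.74 in C3H and 2.10 in B6, or 4.54-, 6.67- and 4.28-fold (SE 0.26, adjusted p at most 6.29e-07). At 24 h the difference from vehicle was -0.48 in F1, -0.41 in C3H and -0.51 in B6 and was not called (adjusted p at least 0.0884).

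Trib3, a pseudokinase that is induced by ATF4 and restrains it, rose at 2 h by 0.77 in F1, 1.06 in C3H and 0.88 in B6 (SE 0.14, adjusted p at most 6.29e-05) and fell below vehicle at 24 h by 1.28 in F1, 0.98 in C3H and 1.34 in B6 (SE 0.14, adjusted p at most 3.2e-06). Trib3 measured -1.94, -1.42 and -1.55 at 24 h, 0.23, 0.34 and 0.68 at 2 h, and -0.27, -0.45 and -0.34 in vehicle in F1. In C3H, Trib3 measured -1.33, -1.49 and -1.34 at 24 h, 0.35, 0.88 and 0.74 at 2 h, and -0.42, -0.35 and -0.43 in vehicle. In B6, Trib3 measured -1.64, -1.38 and -1.78 at 24 h, 0.64, 0.67 and 0.55 at 2 h, and -0.28, -0.17 and -0.32 in vehicle. The 3 groups of each strain did not overlap, with 2 h highest and 24 h lowest. Its other probe gave 0.90 in F1, 1.06 in C3H and 0.84 in B6 at 2 h and -0.89 in F1, -0.71 in C3H and -1.20 in B6 at 24 h.

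Ddit3, which encodes the transcription factor CHOP, is a further ATF4 target. Ddit3 measured -0.44, -0.55 and -0.37 at 24 h, -0.25, -0.12 and 0.03 at 2 h, and 0.80, 0.63 and 0.63 in vehicle in F1. In C3H, Ddit3 measured -0.60, -0.67 and -0.40 at 24 h, -0.19, 0.00 and 0.01 at 2 h, and 0.82, 0.68 and 0.83 in vehicle. In B6, Ddit3 measured -0.70, -0.69 and -0.87 at 24 h, -0.22, 0.09 and -0.03 at 2 h, and 0.63, 0.66 and 0.74 in vehicle. Vehicle arrays were highest and 24 h arrays lowest in every strain, without overlap. Ddit3 fell by 0.80 in F1, 0.84 in C3H and 0.73 in B6 at 2 h (SE 0.09, adjusted p at most 1.05e-06) and by 1.14 in F1, 1.33 in C3H and 1.43 in B6 at 24 h (SE 0.09, adjusted p at most 1.11e-09).

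Eif4ebp1 encodes a repressor of cap-dependent translation. Eif4ebp1 measured 3.27, 3.02 and 3.12 at 24 h, 1.20, 0.92 and 1.37 at 2 h, and 2.64, 2.25 and 2.30 in vehicle in F1. In C3H, Eif4ebp1 measured 3.00, 3.05 and 3.01 at 24 h, 1.34, 1.20 and 1.25 at 2 h, and 2.36, 2.23 and 2.34 in vehicle. In B6, Eif4ebp1 measured 3.26, 3.32 and 3.31 at 24 h, 1.35, 1.18 and 1.03 at 2 h, and 2.62, 2.33 and 2.34 in vehicle. The 2 h arrays lay below vehicle and the 24 h arrays above it in each strain. The fall at 2 h was 1.23 in F1, 1.05 in C3H and 1.24 in B6 (SE 0.11, adjusted p at most 8.37e-08), and the rise at 24 h was 0.74 in F1, 0.71 in C3H and 0.87 in B6 (SE 0.11, adjusted p at most 1.37e-05). A second Eif4ebp1 probe gave -1.40 in F1, -1.12 in C3H and -1.43 in B6 at 2 h but -0.04 in F1, 0.03 in C3H and 0.26 in B6 at 24 h.

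Atf5 encodes a transcription factor related to ATF4. Atf5 measured 4.99, 5.03 and 5.08 at 24 h, 5.54, 5.76 and 5.79 at 2 h, and 5.13, 5.18 and 5.32 in vehicle in F1. In C3H, Atf5 measured 5.02, 4.86 and 4.99 at 24 h, 5.55, 5.76 and 5.89 at 2 h, and 5.21, 5.33 and 5.22 in vehicle. In B6, Atf5 measured 5.30, 5.44 and 5.58 at 24 h, 5.65, 5.79 and 5.49 at 2 h, and 5.08, 4.92 and 5.17 in vehicle. All 2 h arrays were above vehicle, whereas 24 h arrays were above vehicle in B6 and below it in F1 and C3H. Atf5 rose at 2 h by 0.49 in F1, 0.49 in C3H and 0.59 in B6 (SE 0.10, adjusted p at most 0.000251). At 24 h it measured -0.18 in F1, -0.30 in C3H and 0.38 in B6, called lower in C3H and higher in B6 and not called in F1 (adjusted p = 0.118). Quantile normalization turned the B6 value at 24 h to -0.094.

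Sesn2, a stress-induced inhibitor of the growth kinase mTORC1, rose at 2 h by 0.96 in F1, 1.03 in C3H and 0.62 in B6 (SE 0.12, adjusted p at most 0.000133) on the probe used, and by 2.27 in F1, 2.24 in C3H and 2.24 in B6 on its other probe. At 24 h the values were 0.27 in F1, 0.38 in C3H and 0.69 in B6 on the first probe (SE 0.12, adjusted p at most 0.0472) and 0.15 in F1, 0.06 in C3H and 0.43 in B6 on the second.

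**Figure D2:**
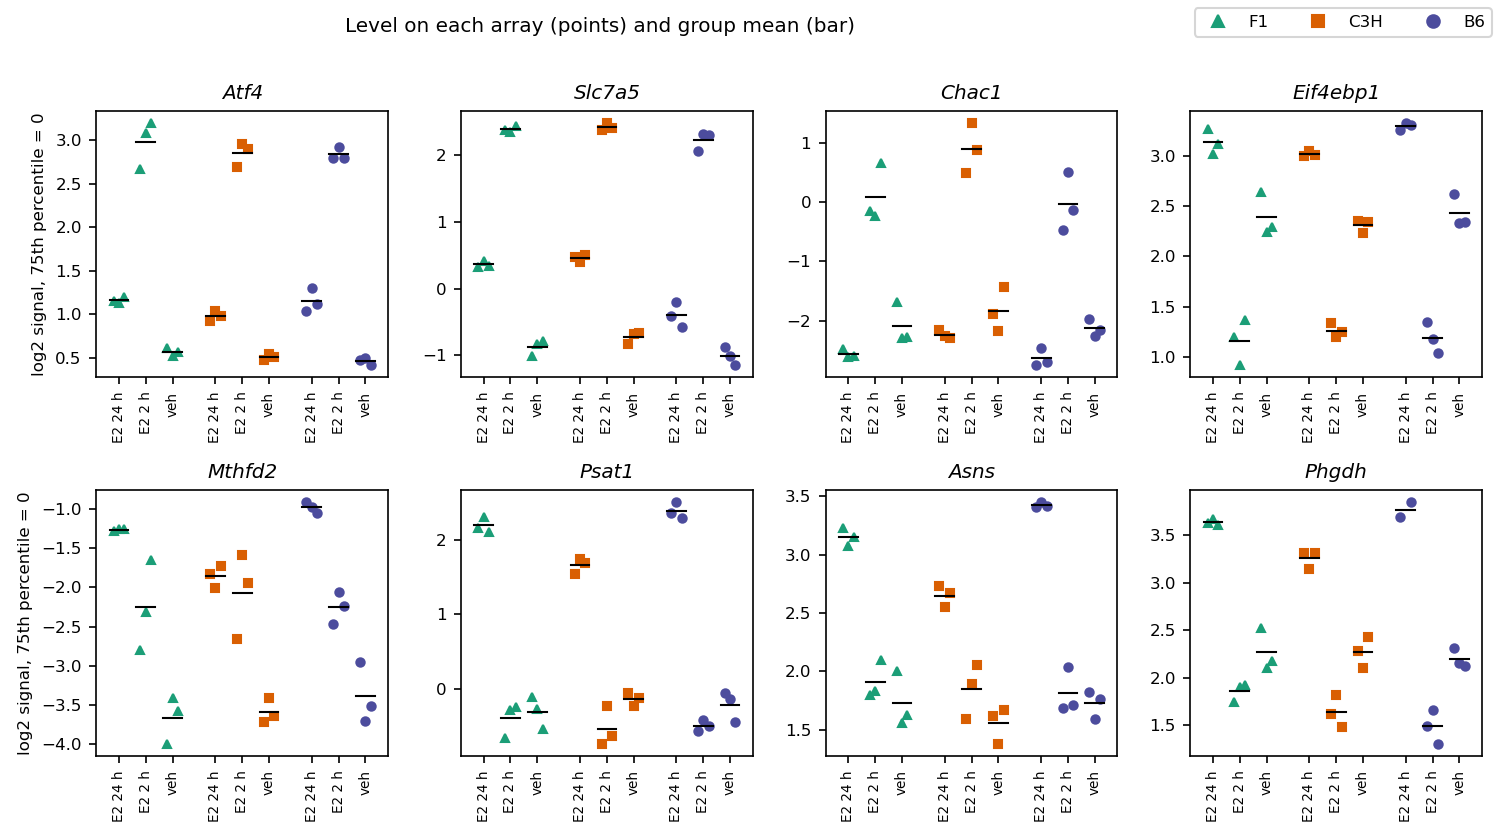
Log2 level on each array (points) and group mean (bar) for Atf4, Slc7a5, Chac1, Eif4ebp1, Mthfd2, Psat1, Asns and Phgdh, where 0 is the array's 75th percentile; within each strain the groups run E2 24 h, E2 2 h, vehicle, and strains run F1, C3H, B6. Atf4, Slc7a5 and Chac1 are highest at 2 h in each strain, Eif4ebp1 and Phgdh are lowest at 2 h, and Psat1 and Asns stand out at 24 h.

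Of the 4 transporters, 3 rose at 2 h in each strain. Slc7a5 encodes the light chain of the large neutral amino acid transporter LAT1, which carries leucine into cells. Slc7a5 measured 0.33, 0.42 and 0.34 at 24 h, 2.38, 2.36 and 2.44 at 2 h, and -1.01, -0.83 and -0.78 in vehicle in F1. In C3H, Slc7a5 measured 0.47, 0.39 and 0.51 at 24 h, 2.38, 2.48 and 2.41 at 2 h, and -0.83, -0.68 and -0.67 in vehicle. In B6, Slc7a5 measured -0.40, -0.21 and -0.57 at 24 h, 2.07, 2.32 and 2.30 at 2 h, and -0.88, -1.0 and -1.14 in vehicle. In every strain all 2 h arrays were above all 24 h arrays, which were above vehicle. Slc7a5 rose at 2 h by 3.27 in F1, 3.15 in C3H and 3.24 in B6, or 9.64-, 8.88- and 9.45-fold (SE 0.09, adjusted p at most 1.03e-16). At 24 h it was still higher than in vehicle by 1.24 in F1, 1.18 in C3H and 0.61 in B6 (SE 0.09, adjusted p at most 3.65e-06).

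Slc3a2 encodes the heavy chain that partners SLC7A5 and SLC7A11 at the cell surface. Slc3a2 measured 3.34, 3.30 and 3.29 at 24 h, 3.46, 3.85 and 3.80 at 2 h, and 3.1, 3.25 and 3.25 in vehicle in F1. In C3H, Slc3a2 measured 2.81, 3.02 and 2.92 at 24 h, 3.46, 3.71 and 3.64 at 2 h, and 2.90, 2.96 and 2.90 in vehicle. In B6, Slc3a2 measured 3.47, 3.59 and 3.63 at 24 h, 3.63, 3.93 and 3.90 at 2 h, and 3.48, 3.45 and 3.46 in vehicle. The 2 h arrays lay above vehicle in all strains, and the C3H vehicle and 24 h arrays lay below those of F1 and B6. Its rise at 2 h was 0.51 in F1, 0.68 in C3H and 0.36 in B6 (SE 0.09, adjusted p at most 0.00251), and at 24 h it was not called (0.11 in F1, 0.00 in C3H and 0.10 in B6). A second probe measured -0.30 in F1, -0.29 in C3H and -0.26 in B6 at 24 h.

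Slc7a1, a carrier of arginine and lysine, rose at 2 h by 1.02 in F1, 0.73 in C3H and 0.91 in B6 (SE 0.21, adjusted p at most 0.00606). At 24 h it was higher by 0.95 in F1 and 0.87 in B6, and measured 0.05 in C3H, where it was not called. Background correction by normexp turned the change to -0.62 in F1 and -0.34 in C3H at 2 h, and to -0.64 in F1 and -0.094 in B6 at 24 h. The difference of the 24 h response between C3H and B6 (-0.82) did not pass the test (adjusted p = 0.0638).

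Slc7a11 encodes the light chain of the cystine and glutamate exchanger. Slc7a11 measured -2.13, -1.21 and -2.07 at 24 h, -1.61, -1.40 and -1.40 at 2 h, and -1.52, -1.35 and -1.62 in vehicle in F1. In C3H, Slc7a11 measured -3.51, -3.31 and -3.44 at 24 h, -2.78, -2.87 and -3.24 at 2 h, and -3.14, -2.66 and -2.91 in vehicle. In B6, Slc7a11 measured -0.69, -0.70 and -0.74 at 24 h, -0.77, -0.69 and -0.54 at 2 h, and -0.81, -0.41 and -0.42 in vehicle. The strains lay far apart, with B6 highest and C3H lowest in every group, while the groups of a strain lay close together. At 2 h the values were 0.03 in F1, -0.06 in C3H and -0.12 in B6, none of them called (adjusted p at least 0.596). At 24 h it fell by 0.52 in C3H (adjusted p = 0.0178) and was not called in F1 (-0.31) or B6 (-0.16). These values are from the probe used. Its probes disagreed at 24 h, since a second probe measured 0.83 in F1, 0.64 in C3H and 0.82 in B6. They disagreed at 2 h too, where the clone probe lay below vehicle in each strain, with values given under other observations.

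All 6 synthesis enzymes rose at 24 h in each strain, while at 2 h Mthfd2 rose and Phgdh, Psph and Shmt2 fell in each strain. The serine pathway runs through PHGDH, PSAT1 and PSPH, and SHMT2 and MTHFD2 carry serine carbon into the mitochondrial folate pool. Psat1, the transaminase step, moved most at 24 h. Psat1 measured 2.16, 2.30 and 2.11 at 24 h, -0.65, -0.29 and -0.25 at 2 h, and -0.11, -0.27 and -0.54 in vehicle in F1. In C3H, Psat1 measured 1.54, 1.74 and 1.68 at 24 h, -0.74, -0.23 and -0.63 at 2 h, and -0.06, -0.23 and -0.13 in vehicle. In B6, Psat1 measured 2.35, 2.50 and 2.28 at 24 h, -0.56, -0.42 and -0.50 at 2 h, and -0.06, -0.14 and -0.45 in vehicle. Every 24 h array was above every other array of its strain. The rise at 24 h was 2.50 in F1, 1.79 in C3H and 2.59 in B6, or 5.65-, 3.46- and 6.04-fold (SE 0.13, adjusted p at most 4.88e-10). At 2 h the values were -0.09 in F1, -0.40 in C3H and -0.28 in B6, called lower in C3H (adjusted p = 0.015) and not called in F1 or B6.

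Phgdh encodes the first enzyme of serine synthesis. Phgdh measured 3.63, 3.67 and 3.61 at 24 h, 1.75, 1.91 and 1.92 at 2 h, and 2.52, 2.11 and 2.18 in vehicle in F1. In C3H, Phgdh measured 3.32, 3.15 and 3.32 at 24 h, 1.62, 1.82 and 1.48 at 2 h, and 2.28, 2.10 and 2.43 in vehicle. In B6, Phgdh measured 3.69 and 3.85 at 24 h, 1.5, 1.66 and 1.31 at 2 h, and 2.31, 2.15 and 2.13 in vehicle. In B6 at 24 h only 2 arrays gave a value, because the spot on replicate 3 was marked as an outlier and was dropped. The 2 h arrays were below vehicle and the 24 h arrays above it in each strain. Phgdh fell at 2 h by 0.41 in F1, 0.63 in C3H and 0.71 in B6 (SE 0.11, adjusted p at most 0.0044) and rose at 24 h by 1.37 in F1, 0.99 in C3H and 1.57 in B6 (SE 0.11 to 0.13, adjusted p at most 3.29e-07). Psph, the phosphatase of the last step, followed the same course, with a fall of 0.31 in F1, 0.38 in C3H and 0.47 in B6 at 2 h and a rise of 1.00 in F1, 0.74 in C3H and 1.23 in B6 at 24 h (SE 0.08, adjusted p at most 6.73e-08).

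Shmt2, the mitochondrial serine hydroxymethyltransferase, is next. Shmt2 measured 1.67, 1.68 and 1.73 at 24 h, 0.22, 0.35 and 0.42 at 2 h, and 0.51, 0.57 and 0.51 in vehicle in F1. In C3H, Shmt2 measured 1.58, 1.67 and 1.63 at 24 h, 0.25, 0.34 and 0.35 at 2 h, and 0.48, 0.58 and 0.47 in vehicle. In B6, Shmt2 measured 1.65, 1.78 and 1.71 at 24 h, 0.18, 0.26 and 0.23 at 2 h, and 0.42, 0.47 and 0.50 in vehicle. The 3 groups did not overlap in any strain. Its fall at 2 h was small, 0.20 in F1, 0.19 in C3H and 0.24 in B6 (SE 0.05, adjusted p at most 0.00403), and without between-array scaling the F1 value turned to 0.055. The rise at 24 h was 1.17 in F1, 1.11 in C3H and 1.25 in B6 (SE 0.05, adjusted p at most 1.28e-12).

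Mthfd2, a mitochondrial folate enzyme, rose at both times. Mthfd2 measured -1.29, -1.25 and -1.25 at 24 h, -2.80, -2.31 and -1.64 at 2 h, and -3.99, -3.41 and -3.57 in vehicle in F1. In C3H, Mthfd2 measured -1.83, -2.01 and -1.73 at 24 h, -2.66, -1.59 and -1.95 at 2 h, and -3.72, -3.41 and -3.64 in vehicle. In B6, Mthfd2 measured -0.91, -0.97 and -1.05 at 24 h, -2.47, -2.05 and -2.24 at 2 h, and -2.95, -3.70 and -3.51 in vehicle. All E2 arrays lay above vehicle, and 24 h lay above 2 h in F1 and B6 but overlapped with it in C3H. The rise was 1.41 in F1, 1.53 in C3H and 1.13 in B6 at 2 h (SE 0.26, adjusted p at most 0.000783) and 2.40 in F1, 1.73 in C3H and 2.41 in B6 at 24 h (SE 0.26, adjusted p at most 6.08e-06). In B6 the 2 h call was lost with slide as a fixed term (0.91, adjusted p = 0.0746) and within slide 1, and in F1 within slide 6 (1.32, adjusted p = 0.102).

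Asns encodes asparagine synthetase. Asns measured 3.22, 3.07 and 3.15 at 24 h, 1.80, 1.83 and 2.10 at 2 h, and 2.00, 1.56 and 1.63 in vehicle in F1. In C3H, Asns measured 2.73, 2.55 and 2.67 at 24 h, 1.59, 1.89 and 2.06 at 2 h, and 1.62, 1.38 and 1.67 in vehicle. In B6, Asns measured 3.40, 3.45 and 3.42 at 24 h, 1.68, 2.04 and 1.71 at 2 h, and 1.83, 1.59 and 1.76 in vehicle. The 24 h arrays were above all others, and the 2 h arrays overlapped with vehicle. At 2 h the values were 0.18 in F1, 0.29 in C3H and 0.08 in B6 and none was called (adjusted p at least 0.0573). At 24 h Asns rose by 1.42 in F1, 1.09 in C3H and 1.70 in B6, or 2.68-, 2.13- and 3.25-fold (SE 0.13, adjusted p at most 2.76e-07).

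The 17 synthetases, each of which joins 1 amino acid (2 for Eprs) to its tRNA, were split at 2 h and nearly uniform at 24 h. Called higher and lower at 2 h were 11 and 2 in F1, 9 and 3 in C3H, and 9 and 5 in B6, where the shares of all genes higher and lower were 22.9% and 36.9% in F1, 23.9% and 37.2% in C3H, and 22.7% and 34.1% in B6. At 24 h these counts were 16 and 0 in F1, 15 and 0 in C3H, and 17 and 0 in B6, with medians of 0.67, 0.57 and 0.87 in F1, C3H and B6. The shares of all genes at 24 h were 31.6% and 36.9% in F1, 26.9% and 40.4% in C3H, and 30.8% and 37.3% in B6. Higher in each strain at 2 h were Aars, Eprs, Hars, Iars, Mars, Nars, Rars and Yars, and lower in each strain were Qars and Sars. Not called at 24 h were Dars in F1 and C3H and Wars in C3H.

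Aars, the alanyl-tRNA synthetase, was measured with 5 probes. Aars measured 3.65, 3.47 and 3.58 at 24 h, 2.85, 3.23 and 3.46 at 2 h, and 2.14, 2.09 and 2.18 in vehicle in F1. In C3H, Aars measured 3.26, 3.12 and 3.21 at 24 h, 3.03, 3.29 and 3.29 at 2 h, and 2.30, 2.27 and 2.36 in vehicle. In B6, Aars measured 3.69, 3.89 and 3.98 at 24 h, 2.94, 3.31 and 3.05 at 2 h, and 2.29, 2.10 and 2.18 in vehicle. E2 arrays of both times lay above vehicle, and 24 h lay above 2 h in F1 and B6 but overlapped with it in C3H. On this probe Aars rose by 1.04 in F1, 0.89 in C3H and 0.91 in B6 at 2 h (SE 0.12, adjusted p at most 1.73e-06) and by 1.43 in F1, 0.89 in C3H and 1.66 in B6 at 24 h (SE 0.12, adjusted p at most 1.82e-06).

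Mars, the methionyl-tRNA synthetase, also rose at both times. Mars measured 1.54, 1.62 and 1.57 at 24 h, 0.45, 0.60 and 0.78 at 2 h, and 0.20, 0.19 and 0.28 in vehicle in F1. In C3H, Mars measured 1.29, 1.22 and 1.31 at 24 h, 0.35, 0.59 and 0.59 at 2 h, and 0.13, 0.35 and 0.20 in vehicle. In B6, Mars measured 1.67, 1.98 and 1.64 at 24 h, 0.46, 0.48 and 0.45 at 2 h, and 0.02, 0.30 and 0.25 in vehicle. The 24 h arrays were above all others in each strain, and at 2 h E2 and vehicle arrays overlapped in C3H alone. Mars rose by 0.39 in F1, 0.28 in C3H and 0.27 in B6 at 2 h (SE 0.10, adjusted p at most 0.0214) and by 1.35 in F1, 1.04 in C3H and 1.57 in B6 at 24 h (SE 0.10, adjusted p at most 9.43e-09).

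Cars charges the cysteine tRNA. Cars measured 1.63, 1.58 and 1.63 at 24 h, 0.73, 0.97 and 1.18 at 2 h, and 0.73, 0.70 and 0.60 in vehicle in F1. In C3H, Cars measured 1.35, 1.46 and 1.47 at 24 h, 0.88, 1.14 and 1.21 at 2 h, and 0.79, 0.78 and 0.65 in vehicle. In B6, Cars measured 1.74, 1.95 and 1.64 at 24 h, 0.83, 0.77 and 0.66 at 2 h, and 0.61, 0.55 and 0.54 in vehicle. All 24 h arrays were above 2 h and vehicle, and in F1 the 2 h range touched the vehicle range. It rose at 24 h by 0.93 in F1, 0.68 in C3H and 1.21 in B6 (SE 0.10, adjusted p at most 4.55e-06), while at 2 h 0.28 in F1, 0.34 in C3H and 0.18 in B6 was called in F1 and C3H and not in B6.

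Tars charges the threonine tRNA. Tars measured 3.54, 3.50 and 3.47 at 24 h, 2.84, 3.11 and 3.23 at 2 h, and 2.94, 2.76 and 2.81 in vehicle in F1. In C3H, Tars measured 3.35, 3.21 and 3.28 at 24 h, 2.92, 3.18 and 3.17 at 2 h, and 2.93, 2.89 and 2.94 in vehicle. In B6, Tars measured 3.67, 3.87 and 3.90 at 24 h, 2.78, 2.93 and 2.84 at 2 h, and 2.88, 2.74 and 2.80 in vehicle. The 24 h arrays lay above the others, and 2 h overlapped with vehicle in each strain. Tars rose at 24 h by 0.67 in F1, 0.36 in C3H and 1.01 in B6 (SE 0.09, adjusted p at most 0.0013). At 2 h it measured 0.22 in F1, 0.17 in C3H and 0.05 in B6 and was called in F1.

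Hars, the histidyl-tRNA synthetase, had levels that lay apart by strain in every group on the probe used. Hars measured 2.60, 2.59 and 2.61 at 24 h, 2.20, 2.36 and 2.34 at 2 h, and 2.02, 2.06 and 2.03 in vehicle in F1. In C3H, Hars measured 2.86, 2.90 and 2.90 at 24 h, 2.64, 2.73 and 2.78 at 2 h, and 2.40, 2.51 and 2.47 in vehicle. In B6, Hars measured 1.85, 1.83 and 2.06 at 24 h, 1.26, 1.37 and 1.32 at 2 h, and 1.26, 1.07 and 1.14 in vehicle. C3H lay above F1 and F1 above B6 in every group. The other Hars probe was not called for C3H or F1 against B6 in vehicle and lay below vehicle at 24 h, with values given below. With E2, Hars rose by 0.26 in F1, 0.26 in C3H and 0.16 in B6 at 2 h (SE 0.06, adjusted p at most 0.0385) and by 0.56 in F1, 0.42 in C3H and 0.76 in B6 at 24 h (SE 0.06, adjusted p at most 7.82e-06).

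Among the other synthetases at 24 h, Gars (glycine) rose by 1.19 in F1, 0.92 in C3H and 1.28 in B6, Iars (isoleucine) by 1.00 in F1, 0.84 in C3H and 1.33 in B6, Rars (arginine) by 1.00 in F1, 0.73 in C3H and 0.94 in B6, Kars (lysine) by 0.96 in F1, 0.85 in C3H and 0.87 in B6 and Yars (tyrosine) by 0.84 in F1, 0.72 in C3H and 1.04 in B6. Rises at 24 h were smaller for Sars (serine), 0.38 in F1, 0.28 in C3H and 0.51 in B6, and Lars (leucine), 0.49 in F1, 0.24 in C3H and 0.69 in B6. Eprs (glutamate and proline), Nars (asparagine) and Qars (glutamine) lay between these, from 0.45 for Nars in C3H to 0.79 for Nars in B6. Wars (tryptophan) measured 0.27 in F1, 0.15 in C3H and 0.46 in B6 and Dars (aspartate) 0.27 in F1, 0.03 in C3H and 0.41 in B6. Wars is also an interferon-induced gene, and its fall at 2 h in B6 (-0.24, adjusted p = 0.0225) was lost under 11 of 21 alternatives. It measured -0.093 (adjusted p = 0.233) without B6 vehicle replicate 1, which stood at 1.52 beside 1.03 and 1.10. The mean level of 15 interferon-induced genes was 1.96 on that array and at most -0.04 on the other B6 vehicle arrays. Whether the Wars value is tied to these genes was not tested.

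Vars, which charges the valine tRNA, was one of the 2 members found through the accession. Vars measured 1.77, 1.90 and 1.82 at 24 h, 0.20, 0.49 and 0.41 at 2 h, and 0.40, 0.59 and 0.57 in vehicle in F1. In C3H, Vars measured 1.5, 1.63 and 1.57 at 24 h, 0.28, 0.31 and 0.23 at 2 h, and 0.42, 0.58 and 0.45 in vehicle. In B6, Vars measured 1.78, 1.93 and 1.75 at 24 h, 0.32, 0.34 and 0.37 at 2 h, and 0.54, 0.71 and 0.62 in vehicle. The 24 h arrays were above the others in each strain. Vars rose at 24 h by 1.31 in F1, 1.08 in C3H and 1.20 in B6 (SE 0.07, adjusted p at most 1.39e-10). Farsb, the beta subunit of the phenylalanyl-tRNA synthetase, rose at 24 h by 0.56 in F1, 0.65 in C3H and 0.81 in B6 (SE 0.09, adjusted p at most 2.21e-05) and was not called at 2 h.

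Probes of 1 gene did not always give the same course. Of the 69 member probes, 13 carried the accession of a cDNA clone and not of a RefSeq mRNA, among them all 3 Lars probes; this grouping was made after the values were seen. At 24 h, 6 of the 11 such second probes had the opposite sign to the probe used for the gene in all 3 strains, against 1 of 22 second probes named for a RefSeq mRNA. Called lower at 24 h in all 3 strains were 5 of these 11, against 1 of the 22. At 2 h, 5 of the 11 were called higher in all 3 strains, against 7 of the 22. Aars, Lars and Dars each had more than 1 clone probe, so these probes are not independent of one another. For Lars and Sesn2 the probe used was itself a clone probe. The other Sesn2 probe was named for an mRNA and had the same sign as the probe used at both times. At 24 h this mRNA probe was called higher in B6 and not called in F1 (adjusted p = 0.0964) or C3H (adjusted p = 0.54), whereas the clone probe was called in each strain.

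Aars showed the widest contrast. The probe used lay at chr8:109655652-109655710 and the other mRNA probe within chr8:109650049-109650547 (mouse build mm7, as the files give it), and the clone probes lay at chr8:109637448-109637507, chr8:109643111-109643170 and chr8:109646687-109646746. Whether these positions are exonic or intronic was not analysed here. The other mRNA probe rose by 1.12 in F1, 1.00 in C3H and 0.81 in B6 at 2 h and 1.81 in F1, 1.38 in C3H and 1.80 in B6 at 24 h. The first clone probe rose by 2.71 in F1, 3.1 in C3H and 3.22 in B6 at 2 h and measured -0.71 in F1, -0.68 in C3H and -0.75 in B6 at 24 h. The Iars clone probe, at chr13:49206323-49206382, gave 1.04 in F1, 1.26 in C3H and 1.31 in B6 at 2 h and -0.82 in F1, -0.60 in C3H and -0.51 in B6 at 24 h, whereas the Iars probe used rose at both times. For Hars the clone probe gave 0.75 in F1, 0.99 in C3H and 0.79 in B6 at 2 h and -0.91 in F1, -0.76 in C3H and -0.84 in B6 at 24 h. When all probes of a gene were averaged, Hars at 24 h turned to -0.17 in F1, -0.17 in C3H and -0.039 in B6.

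**Figure D3:**
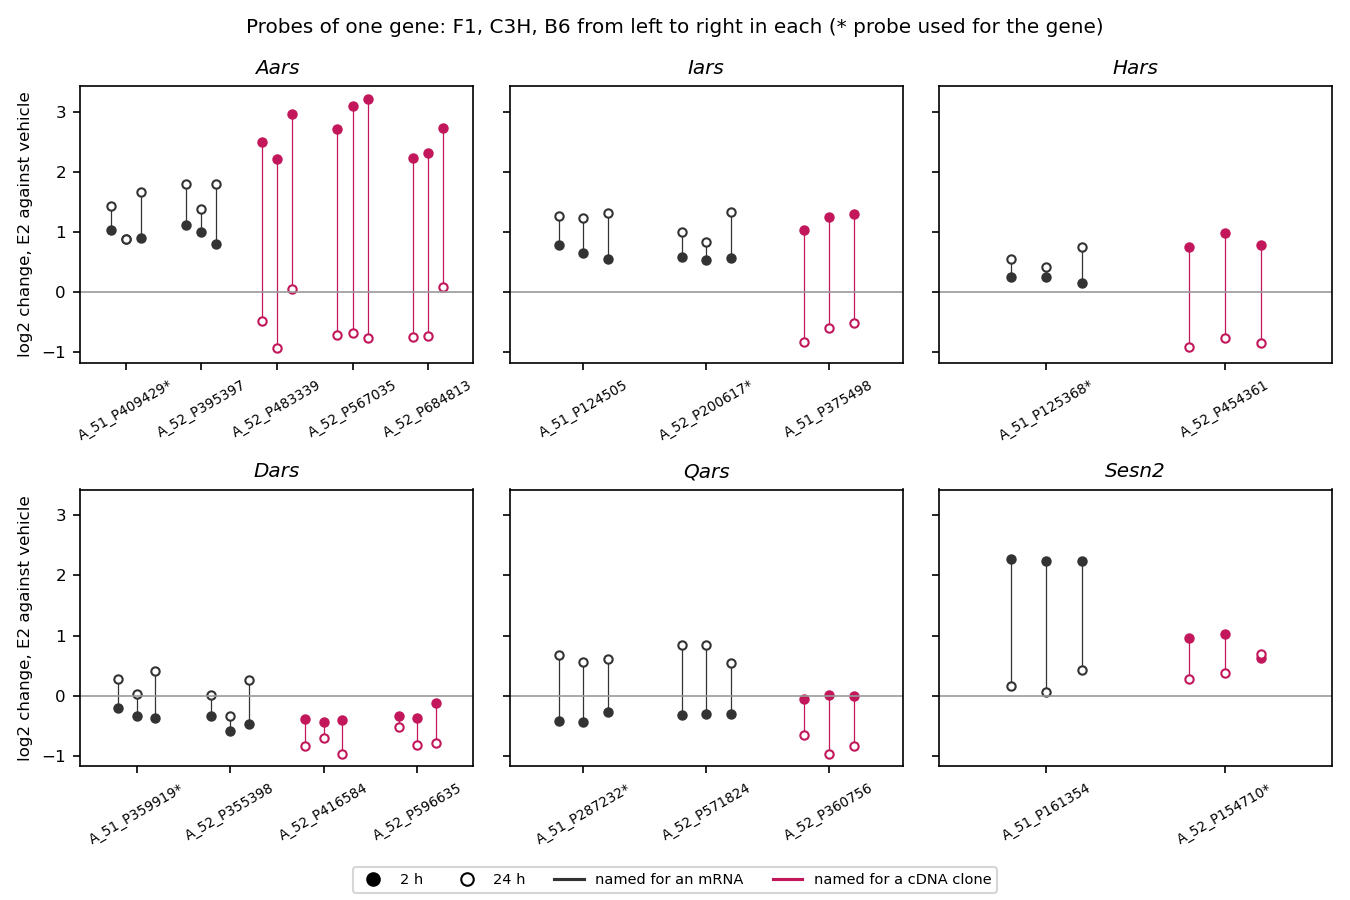
Log2 change against vehicle for every probe of Aars, Iars, Hars, Dars, Qars and Sesn2, with 2 h as filled and 24 h as open circles, F1, C3H and B6 from left to right within a probe, and a star on the probe used for the gene; dark lines are probes named for an mRNA and pink lines probes named for a cDNA clone. For Aars, Iars and Hars the clone probes lie above 0 at 2 h and near or below it at 24 h, whereas the mRNA probes lie above 0 at both times.

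Set directly against 2 h, with no vehicle array involved, 24 h uteri had lower levels of Atf4, Chac1, Trib3 and Slc7a5 and higher levels of most synthetases and synthesis enzymes. In F1, 23 members were higher and 8 lower at 24 h than at 2 h (all genes 38.4% and 30.2%). In C3H these were 19 and 10 (all genes 34.7% and 35.7%), and in B6 24 and 6 (all genes 35.9% and 32.8%). Both directions together gave 31, 29 and 30 members in F1, C3H and B6 (all genes 68.6%, 70.4% and 68.7%). Chac1 was lower at 24 h by 2.66 in F1, 3.15 in C3H and 2.61 in B6 (SE 0.26, adjusted p at most 1.45e-08) and Slc7a5 by 2.03 in F1, 1.97 in C3H and 2.63 in B6 (SE 0.09, adjusted p at most 1.14e-13). Trib3 was lower by 2.05 in F1, 2.05 in C3H and 2.22 in B6 (SE 0.14, adjusted p at most 4.9e-11). Psat1 was higher at 24 h by 2.59 in F1, 2.19 in C3H and 2.88 in B6 (SE 0.13, adjusted p at most 1.11e-11), Phgdh by 1.78 in F1, 1.62 in C3H and 2.28 in B6 (SE 0.11 to 0.13, adjusted p at most 1.8e-10) and Eif4ebp1 by 1.97 in F1, 1.76 in C3H and 2.11 in B6 (SE 0.11, adjusted p at most 2.12e-11). Within slide 2 (2 arrays of each time) 29 members were called in B6 (23 higher and 6 lower, all genes 31.6% and 29.7%), and within slide 4 (1 against 3) 20 in C3H (12 higher and 8 lower, all genes 26.8% and 21.9%). Averaging all probes turned Hars and Iars to lower at 24 h in all 3 strains and Aars in F1 and B6.

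Without E2, 5 members differed between C3H and B6, 2 between F1 and B6 and 3 between F1 and C3H (all genes 24.4%, 12.6% and 14.3%). C3H against B6 gave 3 higher and 2 lower of 34 (all genes 13.5% and 10.9%), F1 against B6 gave 1 and 1 (all genes 5.42% and 7.18%), and F1 against C3H gave 1 and 2 (all genes 5.35% and 9%). Slc7a11 was lower in C3H than in B6 vehicle by 2.36, or 5.12-fold (SE 0.18, adjusted p = 2.69e-09). All 4 Slc7a11 probes were lower in C3H, from -2.52 to -2.19. F1 lay between the parents, with -0.95 (SE 0.18, adjusted p = 0.00145) against B6 and 1.41 (SE 0.18, adjusted p = 2e-05) against C3H. On the clone probe the F1 difference from B6 was -0.80 and was not called.

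Slc3a2, whose product pairs with that of Slc7a11, was lower in C3H than in B6 vehicle on both of its probes. The difference was -0.54 (SE 0.09, adjusted p = 0.000172) on the probe used and -0.37 (adjusted p = 0.0446) on the other. F1 was not called against either parent. Hars was higher in C3H than in B6 by 1.31 (SE 0.06, adjusted p = 1.84e-12) and in F1 than in B6 by 0.88 (SE 0.06, adjusted p = 6.06e-09), but its clone probe measured -0.20 (adjusted p = 0.162) and -0.17 (adjusted p = 0.344). Lars (0.34) and Slc7a5 (0.28) were also higher in C3H than in B6. With slide as a fixed term 3 members were called for C3H against B6 (1 higher and 2 lower, all genes 4.02% and 3.6%), and without the 3 arrays that stood apart 5 were called for F1 against C3H (2 higher and 3 lower, all genes 6.33% and 12.4%). F1 vehicle arrays shared no slide with vehicle arrays of either parent and slide could not be fitted, so slide and strain cannot be told apart for F1 vehicle.

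**Figure D4:**
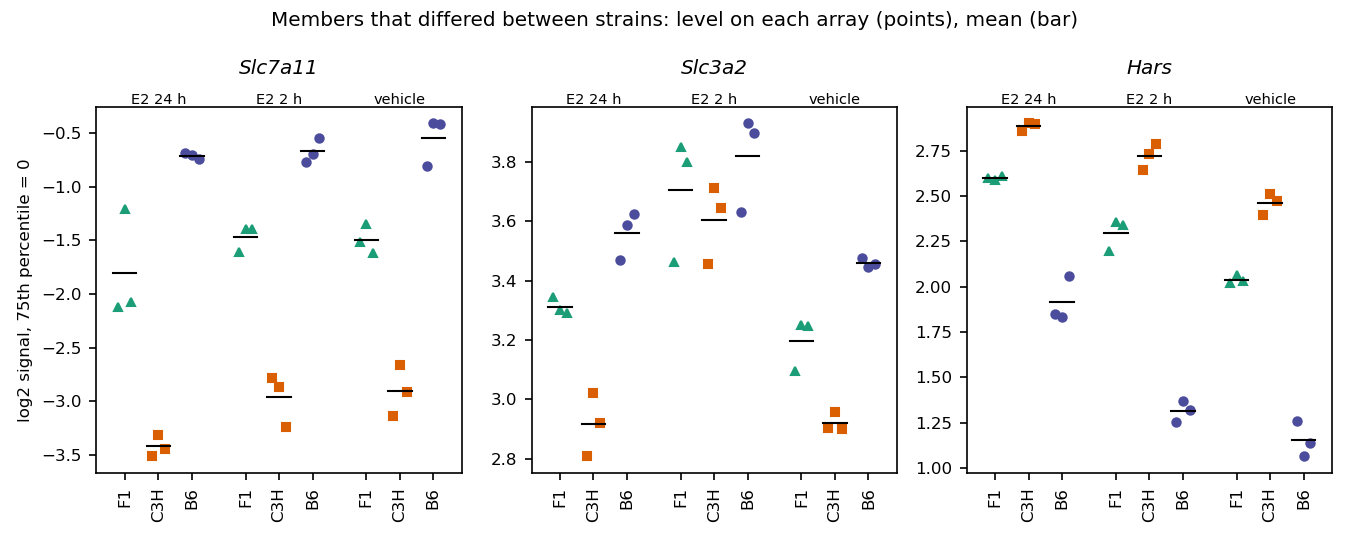
Log2 level on each array (points) and group mean (bar) of Slc7a11, Slc3a2 and Hars by treatment (E2 24 h, E2 2 h, vehicle) and, within each, by strain (F1, C3H, B6), where 0 is the array's 75th percentile. On the probes used, Slc7a11 runs from C3H up through F1 to B6 in all 3 treatments, and Hars runs the other way.

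No member's 2 h response differed between strains after adjustment in limma. Of 34 members, 2 had an unadjusted p under 0.05 for C3H against B6, 1 for F1 against B6 and 1 for F1 against C3H, beside 15.5%, 11.7% and 9.21% of all genes. The shares of all genes called were 2.24%, 0.64% and 0.224%. For Atf4 the 2 h responses differed by -0.03 between C3H and B6 (SE 0.14).

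At 24 h the response of C3H differed from that of B6 in 14 of 34 members, with 1 difference above 0 and 13 below 0 (C3H minus B6), where 5.67% of all genes were higher and 13.3% lower (19% either way). Smaller in C3H were 4 synthesis enzymes, Psat1 with a difference of -0.80 (SE 0.19, adjusted p = 0.00611), Asns with -0.61 (SE 0.18, adjusted p = 0.0241), Phgdh with -0.58 (SE 0.17, adjusted p = 0.0233) and Psph with -0.49 (SE 0.11, adjusted p = 0.00494). Among the synthetases the difference was -0.78 (SE 0.17, adjusted p = 0.00348) for Aars, -0.65 (SE 0.12, adjusted p = 0.0014) for Tars, -0.53 (SE 0.14, adjusted p = 0.0101) for Mars and -0.52 (SE 0.14, adjusted p = 0.0131) for Cars. Iars, Lars, Hars and Sars differed by -0.49, -0.45, -0.34 and -0.23. Atf5, which had opposite signs, lower than vehicle in C3H and higher in B6, differed by -0.68 (SE 0.14, adjusted p = 0.00233). Slc7a5, the member whose response was larger in C3H, differed by 0.57 (SE 0.13, adjusted p = 0.00397).

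The other probes of these genes were called in part. Both other Phgdh probes and the other Psph probe were called as well, 1 of 2 for Cars and 1 of the 3 Aars clone probes. The second mRNA probe measured -0.42 (adjusted p = 0.187) for Aars, -0.36 (adjusted p = 0.126) for Mars, -0.29 (adjusted p = 0.23) for Tars and -0.09 (adjusted p = 0.787) for Iars, none of them called. Background correction by normexp left 0 of the 14 calls (all genes 0.206% and 0.471%), and normexp with high local backgrounds replaced, chosen after the data were seen, called 14 members (all genes 4.83% and 12.9%). Without between-array scaling 6 were called (1 higher and 5 lower, all genes 3.75% and 6.65%). Slide could not be fitted for any of the 24 h responses, so slide and response cannot be told apart here. Without the 3 arrays that stood apart 16 members were called (1 higher and 15 lower, all genes 7.58% and 19%).

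F1 against B6 gave 2 members at 24 h, Atf5 (-0.56) and Slc7a5 (0.62), 1 lower and 1 higher (all genes 1.28% and 0.951%, 2.23% either way). F1 against C3H gave 1, Psat1, larger in F1 by 0.71 (adjusted p = 0.0428; all genes 3.1% higher, 0.736% lower and 3.83% either way). Each of Atf5 and Psat1 here lost its call under 15 of 24 alternatives, most of them leaving out 1 array. Slc7a5 lost its call in F1 under 2 of 24. Without the 3 arrays that stood apart, 3 members were called for F1 against B6 (1 higher and 2 lower, all genes 1.24% and 1.5%) and 4 for F1 against C3H (4 higher and 0 lower, all genes 9.11% and 1.26%).

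**Figure D5:**
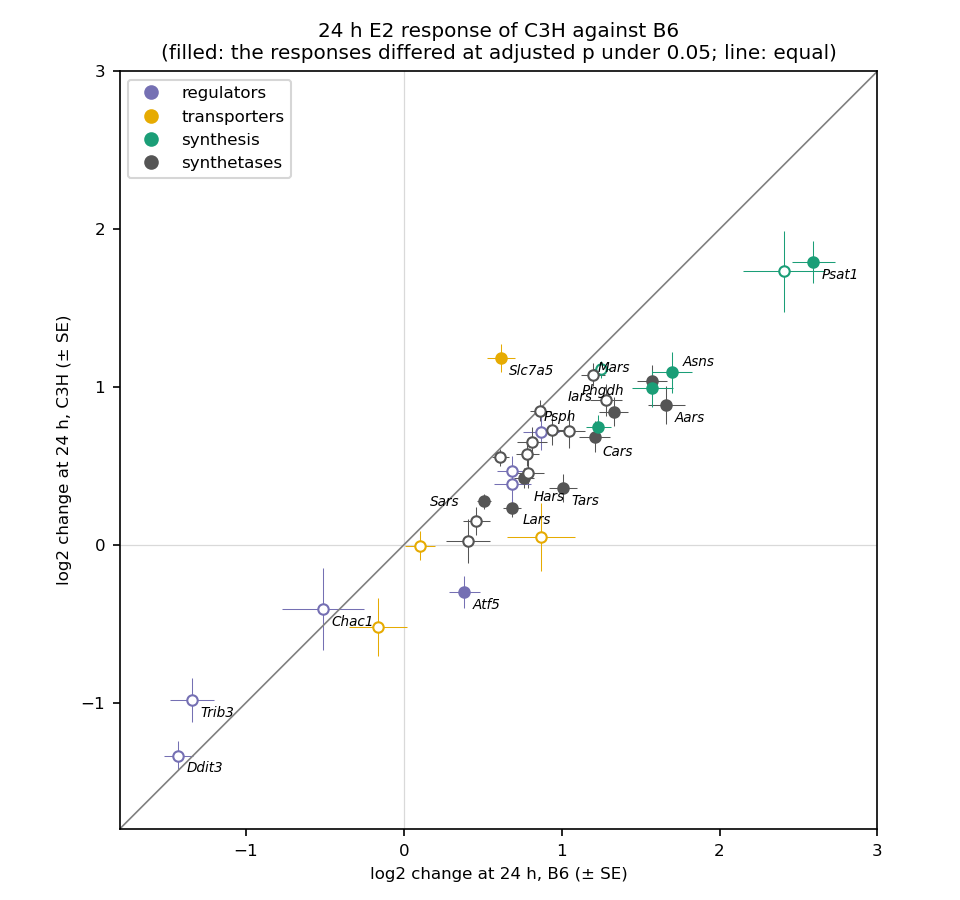
Log2 change at 24 h in C3H (vertical axis) against that in B6 (horizontal axis) for the 36 members, with bars of ± 1 SE, colour by role, the line of equal response, and filled symbols where the responses differed at adjusted p under 0.05. Most synthesis enzymes and synthetases lie below the line, and Slc7a5 lies above it.

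Genes around the pathway were taken from lists chosen by function, with earlier results of these data known. Of 13 genes of eIF2 signalling (kinases, eIF2 and eIF2B subunits, phosphatase subunits), those called higher and lower at 2 h were 8 and 2 in F1, 8 and 3 in C3H, and 8 and 1 in B6, and at 24 h 10 and 3 in F1, 10 and 2 in C3H, and 10 and 3 in B6. Of all genes, the shares higher and lower were 22.9% and 36.9% in F1, 23.9% and 37.2% in C3H, and 22.7% and 34.1% in B6 at 2 h, and 31.6% and 36.9% in F1, 26.9% and 40.4% in C3H, and 30.8% and 37.3% in B6 at 24 h. Ppp1r15a, the stress-induced phosphatase subunit that reverses eIF2 phosphorylation and an ATF4 pathway gene itself, rose at 2 h by 2.24 in F1, 2.35 in C3H and 2.30 in B6, and its constitutive counterpart Ppp1r15b by 1.61 in F1, 1.63 in C3H and 1.61 in B6 (adjusted p at most 3.5e-13). The eIF2 beta subunit gene Eif2s2 rose by 1.53 in F1, 1.43 in C3H and 1.52 in B6 at 2 h and by 1.02 in F1, 0.84 in C3H and 1.26 in B6 at 24 h.

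Of 26 further genes known as ATF4 targets or partners, those higher and lower at 2 h were 11 and 9 in F1, 11 and 10 in C3H, and 12 and 10 in B6, with medians of -0.05, -0.06 and 0.15 in F1, C3H and B6. At 24 h they were 12 and 8 in F1, 12 and 8 in C3H, and 13 and 8 in B6, with medians of 0.22, 0.15 and 0.36. The shares of all genes higher and lower were 22.9% and 36.9% in F1, 23.9% and 37.2% in C3H, and 22.7% and 34.1% in B6 at 2 h, and 31.6% and 36.9% in F1, 26.9% and 40.4% in C3H, and 30.8% and 37.3% in B6 at 24 h. The stress cytokine gene Gdf15 rose at 2 h by 7.01 in F1, 6.49 in C3H and 6.5 in B6, the transcription factor gene Atf3 by 3.97 in F1, 3.43 in C3H and 3.84 in B6 and Cebpb, a partner of ATF4, by 3.28 in F1, 3.32 in C3H and 3.00 in B6. At 24 h the proline synthesis gene Pycr1 rose by 3.27 in F1, 3.35 in C3H and 3.76 in B6, the mitochondrial folate gene Aldh1l2 by 3.12 in F1, 3.45 in C3H and 3.18 in B6 and Stc2, a secreted glycoprotein gene, by 2.96 in F1, 2.65 in C3H and 3.03 in B6 (adjusted p at most 7.22e-12).

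The 17 mitochondrial synthetases, which are encoded by separate genes, gave 3 and 10 in F1, 3 and 10 in C3H, and 4 and 10 in B6 higher and lower at 2 h. At 24 h they gave 13 and 2 in F1, 13 and 1 in C3H, and 12 and 1 in B6. Beside these counts, 22.9% and 36.9% in F1, 23.9% and 37.2% in C3H, and 22.7% and 34.1% in B6 of all genes were higher and lower at 2 h, and 31.6% and 36.9% in F1, 26.9% and 40.4% in C3H, and 30.8% and 37.3% in B6 at 24 h. Yars2 rose at both times, by 1.04 in F1, 0.87 in C3H and 0.83 in B6 at 2 h and 0.87 in F1, 0.76 in C3H and 1.23 in B6 at 24 h, whereas Pars2 fell at 2 h by 1.26 in F1, 1.20 in C3H and 1.10 in B6. Of 5 partners and relatives of the cytosolic synthetases, 3 and 2 in F1, 3 and 2 in C3H, and 3 and 2 in B6 were higher and lower at 2 h, and 4 and 0 in F1, 3 and 0 in C3H, and 4 and 0 in B6 at 24 h. Eef1e1, a scaffold gene of the multisynthetase complex, rose by 1.41 in F1, 1.23 in C3H and 1.11 in B6 at 2 h and by 0.74 in F1, 0.58 in C3H and 1.13 in B6 at 24 h. Aimp2, a further scaffold gene, rose at 24 h by 0.83 in F1, 0.67 in C3H and 1.30 in B6. Tarsl2, a relative of Tars, fell at 2 h by 0.87 in F1, 0.76 in C3H and 0.71 in B6 and was not called at 24 h. Aimp1, a scaffold gene named after its values were seen, fell at 2 h by 0.38 in F1, 0.44 in C3H and 0.36 in B6.

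Cell type markers moved with E2 as well. The mean level of 10 epithelial markers was 3.14 to 3.35 at 24 h in F1 uteri, against 2.07 to 2.32 in vehicle. In C3H it was 2.79 to 2.98 at 24 h against 1.97 to 2.08, and in B6 3.16 to 3.25 against 1.98 to 2.08. At 24 h, 8 of the 10 rose in F1, 8 in C3H and 9 in B6, while Foxa2, a gene of the glands, fell in all 3. Of all genes, 31.6% in F1, 26.9% in C3H and 30.8% in B6 were higher at 24 h. Krt8, Krt18, Epcam and Cdh1 were well above background on all arrays, as were the uterine genes Esr1, Pgr and Hoxa10. At 2 h the epithelial mean was 1.91 to 2.33 in F1, against 2.07 to 2.32 in vehicle, 1.74 to 2.15 in C3H, against 1.97 to 2.08 in vehicle, and 1.83 to 2.05 in B6, against 1.98 to 2.08 in vehicle, and the groups overlapped in each strain. Called higher and lower at 2 h were 2 and 4 in F1, 2 and 5 in C3H, and 2 and 5 in B6 of the 10.

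Mean levels of stromal, uterine and endothelial markers were lower at 2 h. The mean of 10 stromal markers at 2 h was 3.39 to 3.57 in F1, against 3.98 to 4.05 in vehicle, 3.47 to 3.58 in C3H, against 4.00 to 4.17 in vehicle, and 3.17 to 3.6 in B6, against 3.76 to 3.91 in vehicle. Of these 10, 1 and 8 in F1, 1 and 8 in C3H, and 1 and 8 in B6 were called higher and lower. The mean of 7 uterine genes at 2 h was 1.00 to 1.11 in F1, against 1.68 to 1.82 in vehicle, 0.83 to 0.90 in C3H, against 1.71 to 1.80 in vehicle, and 1.00 to 1.12 in B6, against 1.65 to 1.75 in vehicle, with 1 and 6 in F1, 1 and 6 in C3H, and 1 and 5 in B6 called higher and lower. The mean of 10 endothelial markers was 0.95 to 1.05 in F1, against 1.15 to 1.38 in vehicle, 1.03 to 1.07 in C3H, against 1.27 to 1.32 in vehicle, and 1.02 to 1.16 in B6, against 1.26 to 1.33 in vehicle, with 1 and 6 in F1, 1 and 5 in C3H, and 1 and 5 in B6 called. All E2 2 h arrays lay below all vehicle arrays for these 3 lists in each strain. At 24 h the stromal mean was above every vehicle array of its strain, at 4.13 to 4.31 in F1, 4.23 to 4.38 in C3H and 4.09 to 4.23 in B6. The mean of 10 smooth muscle markers was above vehicle too, at 5.18 to 5.44 in F1, 5.30 to 5.46 in C3H and 5.09 to 5.20 in B6. Endothelial means at 24 h were below vehicle in each strain. Means of the uterine genes were below it in F1 and C3H and overlapped with it in B6. The shares of all genes higher and lower at 2 h were 22.9% and 36.9% in F1, 23.9% and 37.2% in C3H, and 22.7% and 34.1% in B6. The part of cell composition in the members' levels at either time was not tested.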

How the data were processed

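Uterine RNA of 9 groups was read on 27 Agilent 1-colour arrays after Cy3 labelling, per the labels. The deposited files give spot intensity on a linear scale. Background had been subtracted and trends within the array removed with Feature Extraction 9.5.3.1, per the file headers (9.5 per the submitters' processing notes), and arrays were not scaled to one another. A deposited matrix of the series matched this processed intensity in 27 of 27 columns.

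From the deposited values, log2 processed signal minus the array's 75th percentile was computed over the 45018 spots less 1639 control spots. Outlier spots were dropped and spots of a probe averaged, giving 41174 probes. Genes were named through accessions (22951 probes), symbols (6659), synonyms (3109) or the file's own name (8455) with RefSeq's gene list. Probes had to pass as well above background on the 3 arrays of 1 or more groups (32901 did), and the brightest such probe stood for a gene. One limma 3.58.1 model of 9 group means (18 residual and 1.95 prior degrees of freedom, R 4.3.3, data.table in version 1.17.8) gave 18 contrasts, with Benjamini-Hochberg adjustment over the 21866 genes. The fit was tested on simulated data. Files were read with Python 3.11.15 (pandas 2.3.3, numpy 2.4.6), and matplotlib 3.10.9 drew the figures. The number of arrays limits the precision.

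Other lists were genes of eIF2 signalling, further ATF4 targets, mitochondrial synthetases, synthetase partners, interferon-induced genes and markers of the uterus and 8 cell types. The members and these lists were chosen with earlier results of these data known. Members given with every array's value were Atf4, those past 1 log2 unit with 1 sign in all strains at a time, and those that differed between strains by at least 0.5 at adjusted p under 0.05. Phgdh, with an outlier spot, was named too. Trib3 was added after its values were seen. From other lists at most 3 called genes per time are named. Same-numbered arrays of a strain did not deviate together (-0.12 to 0.17 over 27 pairs, 5 above 0.1), so numbers were not taken as pairs. Alternatives were the scaling, background correction, probe filter and choice, slide as a block or within slide, strains fitted apart, the replicate block and each array left out. Scan date was not tried, since all arrays were scanned on 1 day. Probe coordinates are on mm7, and upstream sequence is RefSeq's on GRCm38.p6.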

Additional observations from a re-analysis of the deposited data

Results flagged for a closer look

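The 24 h response to E2 differed between strains, by the interaction term of the limma model, in 14 of 34 members for C3H against B6. Of all genes, 19% were called in that term. In log2 units, C3H minus B6, the differences were -0.78 for Aars, -0.61 for Asns, -0.68 for Atf5, -0.52 for Cars, -0.34 for Hars, -0.49 for Iars and -0.45 for Lars. They were -0.53 for Mars, -0.58 for Phgdh, -0.80 for Psat1, -0.49 for Psph, -0.23 for Sars, -0.65 for Tars and 0.57 for Slc7a5. For F1 against B6 they were -0.56 for Atf5 and 0.62 for Slc7a5, and for F1 against C3H 0.71 for Psat1. Of all genes, 2.23% were called for F1 against B6 and 3.83% for F1 against C3H. Each group held 3 arrays, too few for the gap test on single values. The epithelial marker mean at 24 h was 2.79 to 2.98 in C3H, below the 3.16 to 3.25 of B6, and its part in these differences was not tested.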

How the results depend on the processing

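Counts of members called are given in the order F1, C3H, B6. For vehicle and the 24 h responses the order is C3H against B6, F1 against B6, F1 against C3H. In the fit used above, 59.8%, 61.1% and 56.8% of all genes were called at 2 h and 68.5%, 67.3% and 68% at 24 h. For 24 h against 2 h the shares were 68.6%, 70.4% and 68.7%. In vehicle they were 24.4%, 12.6% and 14.3%, and for the 24 h responses 19%, 2.23% and 3.83%. These shares moved with the processing too, and are not given here for each setting. Under normexp they were far lower at 2 h in each strain, as given above. Counts under other settings can therefore not be set against the shares of the fit used. Background correction by normexp (offset 50) on mean and local background signal changed counts most: 16, 17 and 13 at 2 h against vehicle, 25, 20 and 26 at 24 h, 19 for 24 h against 2 h in C3H, 2, 1 and 0 in vehicle, and 0, 0 and 0 for the 24 h responses. On 7 arrays, spots lay more than 100 units below their local background, and the array median after correction was 243 to 1228, against 209.5 to 240.8 on the other 20. A form that set local backgrounds above 2 times the array's median to that median (0 to 57 spots per array) was chosen after those values were seen; it called 27, 28 and 27 at 2 h, 4, 2 and 3 in vehicle and 14, 2 and 1 for the 24 h responses. Under normexp as first written, Slc7a1 turned to -0.62 in F1 and -0.34 in C3H at 2 h, to -0.64 in F1 and -0.094 in B6 at 24 h and to 0.49 for 24 h against 2 h in C3H, where Slc7a11 turned to 0.37 and Hars to -0.014.

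With slide as a fixed term, 17 members were called at 2 h in B6 and 3 for vehicle C3H against B6, and within slide 9 at 2 h in F1 and 10 in B6; Slc7a1 turned to 0.11 for 24 h against 2 h in C3H under both. Slide as a random block (correlation 0.0054) changed no count. Unscaled values gave 4 for vehicle F1 against B6, 6, 1 and 0 for the 24 h responses, and 0.055 for Shmt2 at 2 h in F1. Quantile normalization gave 1 for the 24 h response of F1 against B6 and 0 for F1 against C3H, and -0.094 for Atf5 at 24 h in B6. With no filter on dim probes these were 1 and 0, and with the first 5 against the last 2 slides as a term 0 for F1 against B6. Without the 3 arrays that stood apart, an alternative chosen after the data were seen, 5 were called for vehicle F1 against C3H and 4 for the 24 h response of F1 against C3H. The mean of all probes turned Aars to -0.014 at 24 h in C3H and to -1.66 in F1 and -1.55 in B6 for 24 h against 2 h. It turned Hars to -0.17, -0.17 and -0.039 at 24 h and to -0.68, -0.79 and -0.51 for 24 h against 2 h. Iars turned to -0.32, -0.32 and -0.095 for 24 h against 2 h, and Dars to -0.27 at 24 h in B6 and -0.025 for 24 h against 2 h in C3H. The cause of these changes was not tested.

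Leaving out each array in turn gave 24 to 28, 23 to 28 and 24 to 28 members at 2 h, 28 to 29, 28 to 29 and 30 to 31 at 24 h, 29 to 32, 24 to 29 and 29 to 31 for 24 h against 2 h, 4 to 5, 2 to 3 and 2 to 4 in vehicle, 0 for the 2 h responses, and 12 to 16, 1 to 2 and 0 to 2 for the 24 h responses. Same-numbered arrays do not pair; with a replicate block, 3 and 4 members were called for vehicle F1 against B6 and F1 against C3H, and the counts of the other comparisons stayed at 27, 27 and 28 at 2 h, 29, 29 and 31 at 24 h, 31, 29 and 30 for 24 h against 2 h, 5 for vehicle C3H against B6, and 14, 2 and 1 for the 24 h responses. Slide as a fixed term gave values in 7 of 18 comparisons: E2 against vehicle at 2 h in F1 and B6 and at 24 h in B6, 24 h against 2 h in C3H and B6, vehicle C3H against B6, and the 2 h response of F1 against B6. It could not be fitted in the others. Differences near the spread of 3 arrays may be missed.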

Other observations

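Among the genes with several probes, Wars had a second probe that rose more at 24 h than the probe used, by 1.04 in F1, 0.98 in C3H and 0.83 in B6. The Qars clone probe measured -0.65 in F1, -0.97 in C3H and -0.84 in B6 at 24 h, against 0.67 in F1, 0.56 in C3H and 0.61 in B6 on the probe used. The Slc7a11 clone probe measured -1.71 in F1, -0.84 in C3H and -0.93 in B6 at 2 h, where the probe used measured 0.03 in F1, -0.06 in C3H and -0.12 in B6.

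Other lists are given as genes called higher and lower with E2, beside the shares of all genes. At 24 h all genes gave 31.6% and 36.9% in F1, 26.9% and 40.4% in C3H, and 30.8% and 37.3% in B6. At 2 h all genes gave 22.9% and 36.9% in F1, 23.9% and 37.2% in C3H, and 22.7% and 34.1% in B6. Of 15 interferon-induced genes, at 24 h 9 and 1 in F1, 6 and 1 in C3H, and 2 and 1 in B6 were called, and at 2 h 2 and 5 in F1, 1 and 6 in C3H, and 1 and 9 in B6; their mean level on B6 vehicle replicate 1 was 1.96, above every other array of the series (at most 0.92). Of 10 stromal markers, 4 and 6 in F1, 4 and 6 in C3H, and 4 and 5 in B6 were called at 24 h, of 10 smooth muscle markers 8 and 1 in F1, 5 and 2 in C3H, and 6 and 2 in B6, of 10 endothelial markers 1 and 8 in F1, 1 and 5 in C3H, and 1 and 8 in B6 and of 10 leukocyte markers 2 and 0 in F1, 2 and 0 in C3H, and 1 and 3 in B6. Of 6 genes listed as neutrophil markers these were 2 and 1 in F1, 2 and 1 in C3H, and 1 and 2 in B6. In each strain the genes lower on that list included Prg2, a gene of eosinophils. Of 8 adipocyte markers, 0 and 5 in F1, 1 and 0 in C3H, and 0 and 0 in B6 were called at 24 h. Of 5 mesothelial markers these were 1 and 1 in F1, 1 and 1 in C3H, and 1 and 1 in B6. The higher gene was Krt19, which is also on the epithelial list, and the lower gene was Wt1, while Msln, Upk3b and Lrrn4 were not called. Of 7 uterine genes they were 1 and 5 in F1, 1 and 6 in C3H, and 2 and 4 in B6. The part of these lists in the members' changes was not tested.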
